A study of Homo sapiens with 10 samples.

Results

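The genes described here belong to the unfolded protein response (UPR) and the integrated stress response (ISR), as measured by RNA-seq in TPC-1 cells, an established human papillary thyroid carcinoma line that carries a RET/PTC1 fusion. The 34 members were a named list, matched by the gene name given in both deposited count tables. All 34 were found among the 58735 genes of the tables, and all 34 passed the filter on low counts in every comparison. By role they comprised 4 UPR sensors and transcription factors, 3 ISR transcription factors, 9 chaperones of the endoplasmic reticulum (ER), 3 genes of ER-associated degradation (ERAD), 9 amino acid genes driven by ATF4, and 6 ISR effectors and feedback genes.

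Cells that meet misfolded protein in the ER respond through membrane sensors, among them ATF6 and IRE1 (encoded by ERN1), and the transcription factors ATF6 and XBP1 raise chaperones, folding enzymes and the machinery that removes misfolded protein. The ISR is the neighbouring route: kinases that sense ER stress, amino acid shortage, viral RNA or lack of heme phosphorylate the initiation factor eIF2, general translation falls, and the mRNA of ATF4 is translated more. ATF4 then raises genes for amino acid uptake and synthesis, and its partner CHOP (DDIT3) and the phosphatase subunit GADD34 (PPP1R15A) act downstream, the latter to restore translation. Secretory epithelia such as thyroid follicles, which make large amounts of thyroglobulin, depend on the chaperone arm. The measured quantity here is RNA, so the splicing of XBP1, the cleavage of ATF6 and the translation of ATF4 were not measured.

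All libraries came from transfected cells, of which 5 received an empty vector (EV) and 5 a vector that overexpresses the long non-coding RNA PTCSC3-AS1 (OE). EV and OE replicates 1 to 3 were deposited in 1 table, called the first set here, and replicates 4 and 5 in another, called the second set. In the column names the OE libraries are EST_OE in the first table and OE in the second, and the sources used here do not say what else separates the sets. The study's text speaks of 5 pairs without saying what joins them. No source used here says whether replicates came from separate cultures, so the p-values reflect only how far these libraries vary, and that variation may be technical. In bulk RNA, fewer cells with a transcript and less of it per cell cannot be told apart.

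Libraries held 15761474 to 18066559 counts. No gene name of the tables is PTCSC3-AS1, and PTCSC3 had 0 counts in all 10 libraries, so the overexpression itself could not be checked. Of the thyroid lineage markers, PAX8 measured 153 to 232 TPM (counts per gene length, scaled to the same sum in each library), while NKX2-1, TSHR and SLC5A5 were at 0 in all 10 libraries. Summed fibroblast, leukocyte and endothelial markers did not pass 4.54 TPM in any library. EV replicate 2 stood apart: the chi-square per degree of freedom between gene counts was 4.30 for EV replicates 1 and 3, but 38.2 and 45.2 for replicate 2 against each of them. Among the members, EV replicate 2 was lowest against the mean of EV replicates 1 and 3 for ERN1 (log2 difference -0.78), CREB3L2 (-0.58) and SEL1L (-0.43), whose deposited gene lengths are 10864, 8788 and 9559 bases. It was highest for SDF2L1 (0.68), DDIT3 (0.59) and XBP1 (0.44), with lengths of 1099, 1307 and 3028 bases. The part of gene length in these differences was not tested. Mitochondrial genes took 4.45 to 5.08% of counts in EV and 4.10 to 4.50% in OE libraries, and the part of this share in the values below was not tested.

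Promoter sequence was read beside the list. The motifs searched are elements named for these same pathways, so a match in a member is no independent support for the list. RefSeq windows of 300 bases (250 before to 50 after a transcription start, build GRCh38.p14) were available for 31 of the 34 members. There were 46 windows in all because some genes have several starts. The members without a window were the amino acid genes SLC7A11, PSPH and SHMT2, so 6 of the 9 amino acid genes were searched. Both strands were searched for the ER stress response element ERSE (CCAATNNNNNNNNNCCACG), its variant ERSE-II (ATTGGNCCACG), a UPR element core (TGACGTGG) and the core of the element bound by C/EBP and ATF dimers (TGATGNAA), here called CARE; N is any base. ERSE was found in 27 of 35116 windows of all genes (0.0769%). Of these 27, 8 belonged to 6 members: XBP1 and 5 of the 9 chaperones, HSPA5, HSP90B1, CALR, CANX and PDIA6. The CANX windows with a match overlap and hold the same site, which is therefore counted more than once. ERSE-II was found in 19 windows of all genes (0.0541%), among them those of the chaperone SDF2L1 and of HERPUD1. The CARE core was found in 1270 windows (3.62%) and in 5 members: CREB3L2, HERPUD1, ASNS, SLC3A2 and CHAC1. The UPR element core was found in 256 windows (0.729%) and in 0 of the members. HERPUD1 is the 1 member whose window held motifs of both kinds. A match is a description of letters, not evidence of binding.

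The stretches below show the matches in capitals, 5′ to 3′ on the gene's strand, for some of the members with a match. CEBPB, DDIT3 and PPP1R15A, the members that edgeR called with all libraries between the sets, had no match. The ERSE matches are shown for HSPA5 (chr9:125241351-125241449, minus strand), CALR (chr19:12938359-12938442, plus strand; the motif is on the opposite strand), PDIA6 (chr2:10812845-10812911, minus strand) and XBP1 (chr22:28800598-28800661, minus strand), and ERSE-II for SDF2L1 (chr22:21642074-21642164, plus strand; motif on the opposite strand). HERPUD1 (chr16:56931926-56932047, plus strand) shows first the CARE core on the opposite strand and then ERSE-II. CARE cores with their surroundings, 30 bases each, are shown for ASNS (chr7:97872458-97872487, minus strand) and CHAC1 (chr15:40953251-40953280, plus strand; motif on the opposite strand).
HSPA5: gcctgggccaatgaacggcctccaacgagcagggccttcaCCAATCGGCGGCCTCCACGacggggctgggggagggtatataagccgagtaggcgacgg
CALR: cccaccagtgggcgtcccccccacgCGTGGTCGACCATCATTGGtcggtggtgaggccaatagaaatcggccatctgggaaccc
PDIA6: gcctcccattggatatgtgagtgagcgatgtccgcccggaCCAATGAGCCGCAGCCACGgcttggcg
XBP1: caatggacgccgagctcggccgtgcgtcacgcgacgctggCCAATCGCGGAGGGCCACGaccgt
SDF2L1: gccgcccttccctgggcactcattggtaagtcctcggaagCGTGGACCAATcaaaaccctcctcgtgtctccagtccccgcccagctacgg
HERPUD1: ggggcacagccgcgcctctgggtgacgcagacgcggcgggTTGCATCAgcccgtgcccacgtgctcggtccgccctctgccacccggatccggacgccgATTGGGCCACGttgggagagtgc
ASNS: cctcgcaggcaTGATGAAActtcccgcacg
CHAC1: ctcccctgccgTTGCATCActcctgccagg

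In level per length, the chaperones and the amino acid transporters led. CALR, the calcium-binding lectin chaperone calreticulin, averaged 1607 TPM over the 10 libraries and HSPA5, the central Hsp70 chaperone BiP, 1443 TPM. SLC7A5, the light chain of the large neutral amino acid transporter, followed with 1349 TPM, which put these members at ranks 53, 63 and 65 among all genes. ATF4 itself averaged 749 TPM and its target PSAT1, a serine synthesis enzyme, 539 TPM. At the other end stood ERN1 with 4.11 TPM and ASNS with 1.06 TPM. ASNS makes asparagine and is a standard ATF4 target, yet it drew 11 to 34 counts per library and ranked 15038 among all genes, while the other 8 amino acid genes averaged between 14.0 TPM (SLC7A11) and 1349 TPM. Its fold changes had the widest standard error of the 34 members in all 6 comparisons. PHGDH and SLC7A11 have deposited lengths of 9217 and 9645 bases, and a level per length depends on that length.

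With all libraries, the filter on low counts and no replicate block, edgeR called no member (adjusted p under 0.05) in any comparison of OE with EV. With both sets together, edgeR called 0 of 34 members and 0.0% of 14217 genes tested, and DESeq2 called 0 of 34 members and 0.0422% of genes. At an unadjusted p under 0.05 there were 3 members, against 5.71% of all genes: HERPUD1 (log2 fold change -0.22, SE 0.07), SLC7A11 (-0.37, SE 0.12) and DDIT4 (0.24, SE 0.11), each with an edgeR adjusted p of 0.847. Leaving out EV replicate 2 still gave 0 members called. The 95% interval of a member's change stayed inside 2-fold for all 34 and inside 1.5-fold for 31. The others were DDIT3 (interval -0.84 to 0.03), ASNS (-0.52 to 0.78) and SLC7A11 (-0.63 to -0.11), all on the log2 scale. The median change was -0.03 on the log2 scale over the members and 0.00 over all genes tested.

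Taken by itself, the first set gave 0 of 34 members called, against 0.0349% of 14340 genes, and DESeq2 called 3 members (DDIT3, HERPUD1 and SLC7A11), against 0.53% of genes. At an unadjusted p under 0.05 edgeR gave 6 members, against 8.84% of genes. The 3 OE libraries did not overlap the 3 EV libraries for 9 of 34 members, against 17.0% of genes. Of these, 7 were lower in OE, against 7.86% of genes in that direction: DDIT3, HSPA5, DNAJB9, HERPUD1, SLC7A11, PPP1R15A and STC2. PDIA6 and DDIT4 were the other two, higher in OE. Estimates were below 0 for 24 of 34 members, with a median of -0.08, and for 7504 of 14340 genes, with a median of -0.01.

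The first-set count moved with EV replicate 2. Without that library, edgeR called 11 of 34 members, against 10.7% of 14769 genes: SDF2L1, CEBPB and DDIT4 higher in OE, and CANX, CREB3L2, DDIT3, ERN1, HERPUD1, HSPA5, PPP1R15A and SLC7A11 lower. SLC7A11 then differed by -0.75 on the log2 scale (SE 0.09, edgeR adjusted p = 4.37e-06), DDIT4 by 0.43 (SE 0.08, adjusted p = 0.00174), PPP1R15A by -0.40 (SE 0.08, adjusted p = 0.00174) and HSPA5 by -0.24 (SE 0.06, adjusted p = 0.00539). Leaving out any other library of the first set left 0 members called.

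The second set, with 2 libraries a group, gave 0 of 34 members called by edgeR, 0 by DESeq2 and 0 at an unadjusted p under 0.05. Over all 14419 genes these were 0.0%, 0.00694% and 1.1%. OE did not overlap EV for 4 members, all higher in OE (ATF4, DDIT3, SDF2L1 and ASNS), against 25.0% of genes in either direction and 12.3% in that one. A change had the same sign in both sets for 21 of 34 members (61.8%) and for 7496 of 13947 genes (53.7%). The sets share no library.

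Whether the OE change differed between the sets was tested as an interaction. Here edgeR called 0 of 34 members, against 0.00649% of 15404 genes, and DESeq2 called 0, against 0.0584%. An unadjusted p under 0.05 was reached by 4 members, against 3.62% of genes: PPP1R15A (0.77, SE 0.21), DDIT3 (1.08, SE 0.31), SLC7A11 (0.63, SE 0.19) and HERPUD1 (0.30, SE 0.14), all on the log2 scale as second set minus first set. Their edgeR adjusted p was 0.9996, and the 95% intervals ran from 0.31 to 1.22 for PPP1R15A and from 0.42 to 1.74 for DDIT3. In each of these 4 members the first-set OE libraries lay below the EV libraries without overlap, and in the second set they did not, as the plot of OE changes by set shows.

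**Figure D1:**
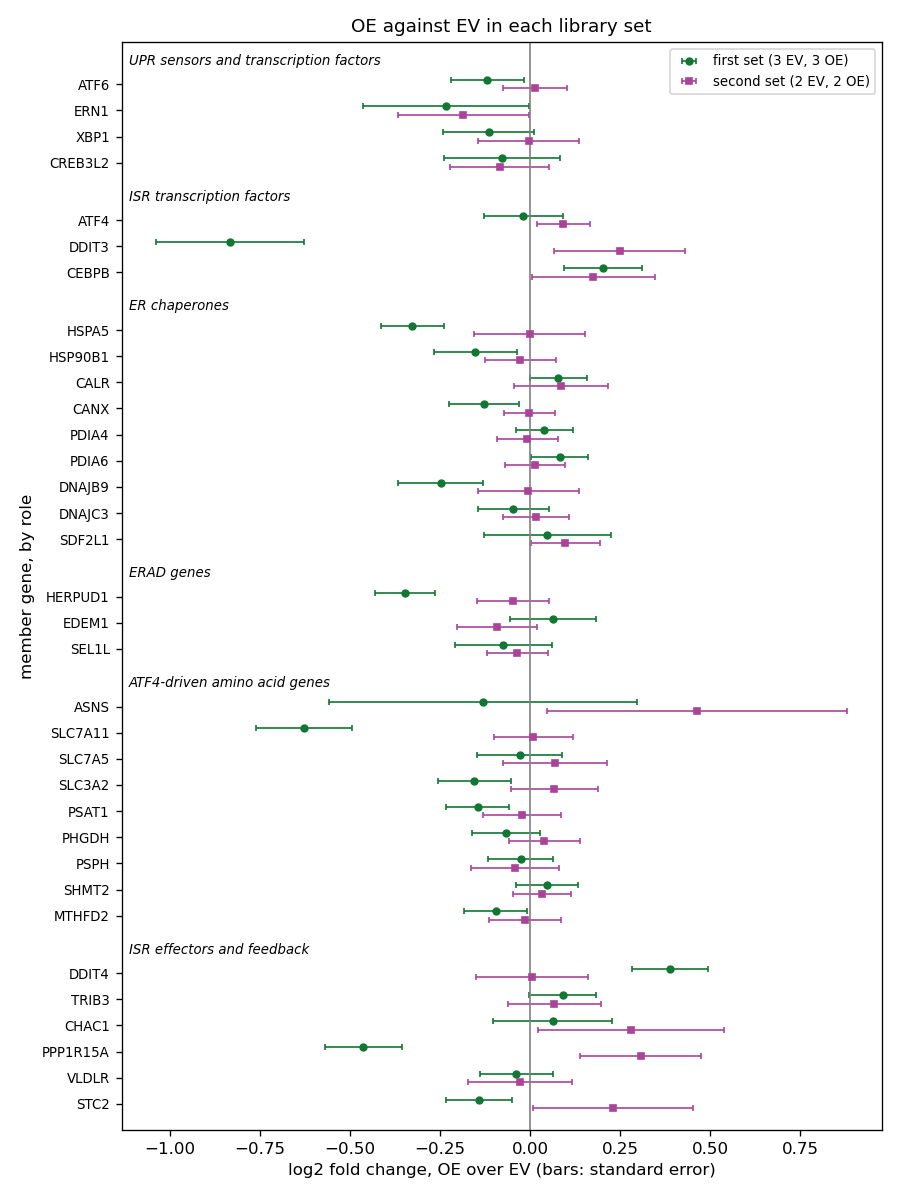
Log2 fold change of OE over EV for each member, grouped by role, in the first set (green circles, 3 against 3 libraries) and in the second set (purple squares, 2 against 2); bars are standard errors. DDIT3, SLC7A11 and PPP1R15A lie left of 0 in the first set, at -0.83, -0.63 and -0.46, and at or right of 0 in the second, at 0.25, 0.01 and 0.31.

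Larger differences lay between the library sets. Against the first set, the second set gave 3 of 34 members called in EV cells, all lower, against 5.52% of 15404 genes called and 2.76% called lower. DESeq2 called 5 members, against 9.14% of genes. In OE cells edgeR called 1 of 34, also lower, against 2.61% and 1.55%, and DESeq2 called 4, against 5.56%. An unadjusted p under 0.05 was reached by 11 members in EV, against 22.8% of genes, and by 12 in OE, against 17.5%. The sets did not overlap for 16 members in EV, against 36.6% of genes, and for 20 in OE, against 42.6%. In each of the groups 13 of those members were lower in the second set, against 18.0% of genes in EV and 21.3% in OE. The EV and OE contrasts use different libraries, and 29 of 34 members (85.3%) had the same sign in both, as did 72.5% of all genes.

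Calls between the sets also moved with single libraries. In EV the count was 9 of 34 without replicate 2, against 15.1% of 15313 genes, and 3 without replicate 1 or 3. The 9 were CANX, CEBPB, DDIT3, DNAJC3, EDEM1, ERN1, HSP90B1 and PPP1R15A, all lower, and SDF2L1, which was higher. In OE it was 0 without replicate 4 and 1 without any other OE library. The set and whatever else changed with it cannot be told apart.

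**Figure D2:**
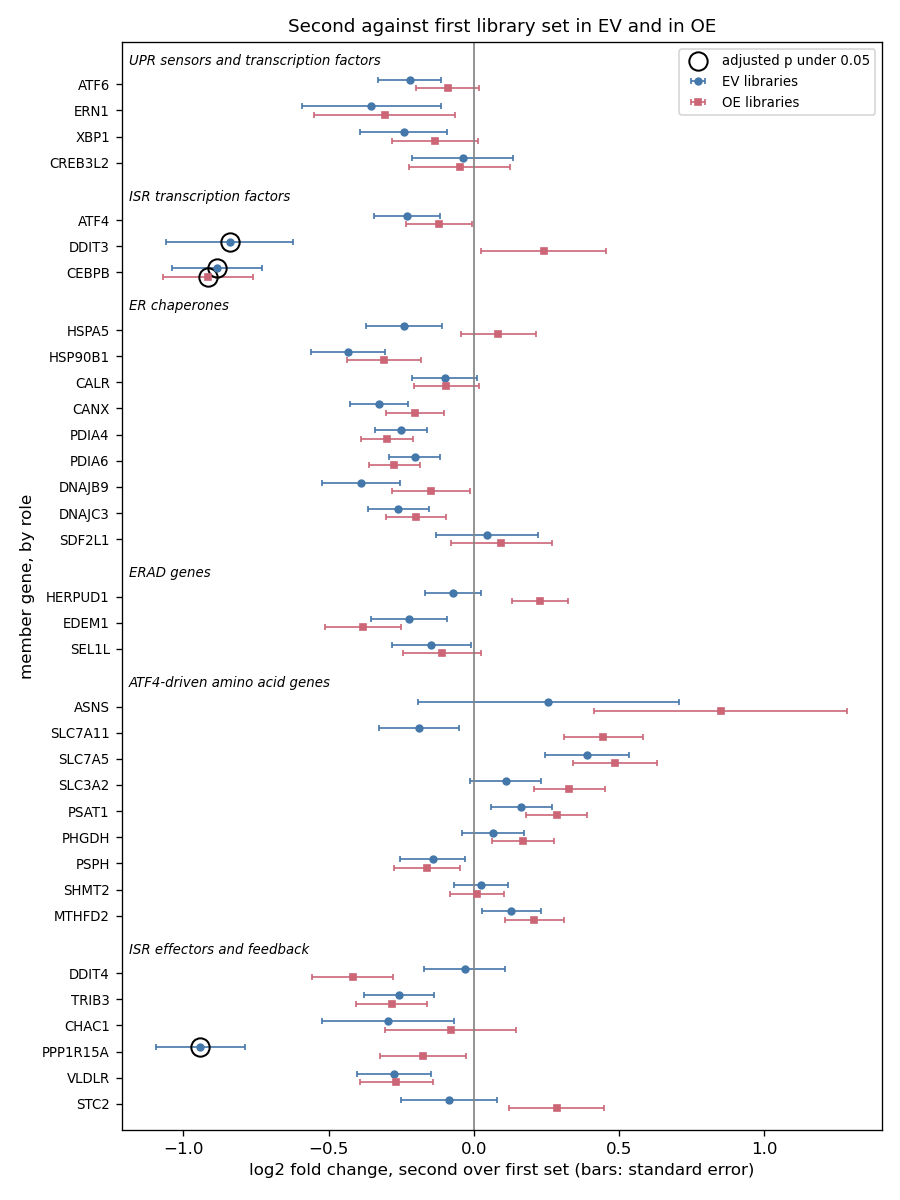
Log2 fold change of the second over the first set for each member, grouped by role, in EV (blue circles, 2 against 3 libraries) and in OE (red squares, 2 against 3); bars are standard errors, and rings mark an edgeR adjusted p under 0.05. The ringed points are CEBPB in both groups (-0.88 and -0.91) and DDIT3 (-0.84) and PPP1R15A (-0.94) in EV, with most chaperones left of 0 and most amino acid genes right of it.

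**Figure D3:**
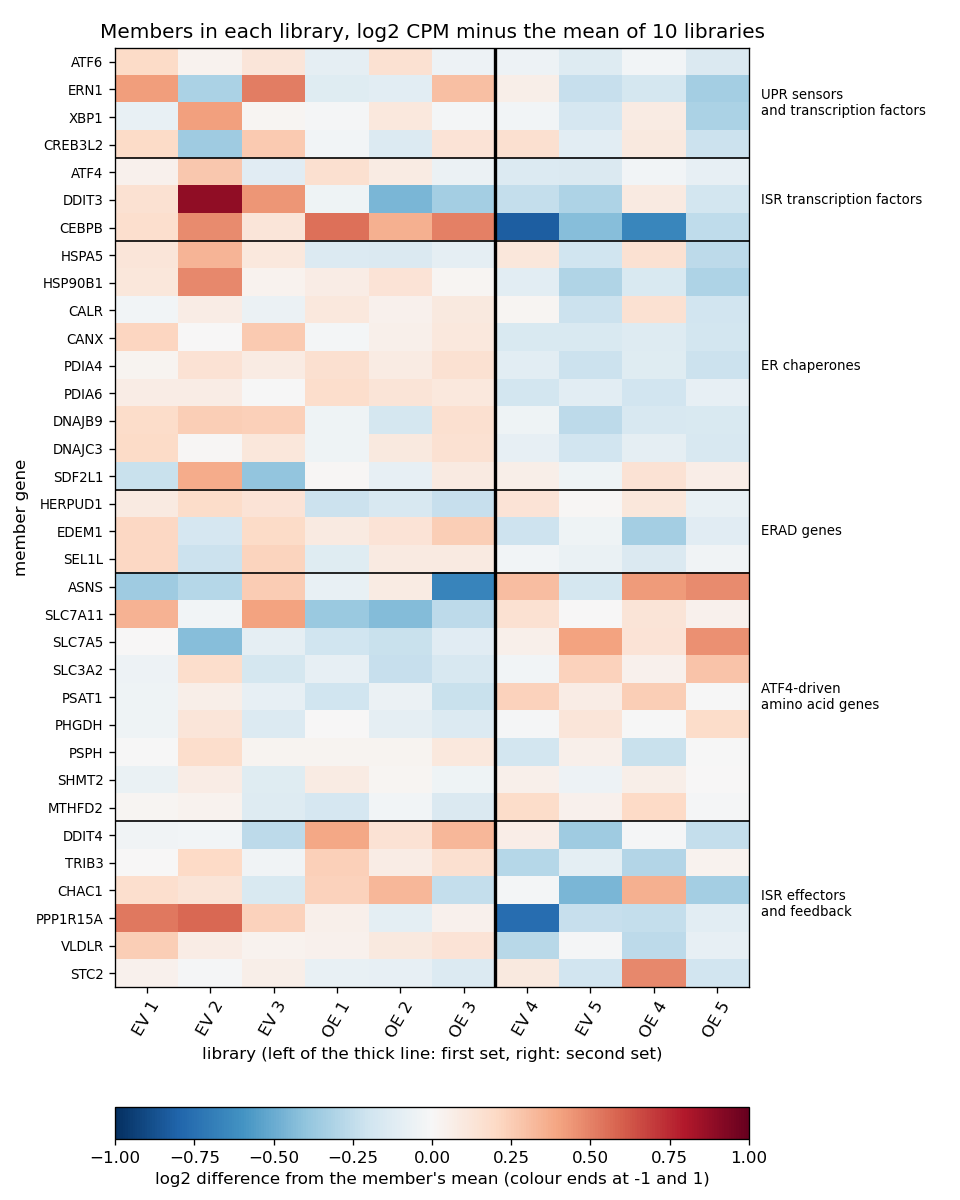
Log2 CPM (CPM are counts scaled by library size and TMM factor) of each member minus its mean over the 10 libraries, members in rows by role and libraries in columns by set and group; red is above the mean and blue below. Chaperones are mostly red in the first set and blue in the second, and amino acid genes mostly the other way round. Exceptions among the amino acid genes include PSPH and EV replicate 2, where the median of these genes is 0.06. SLC7A11 is also red in EV replicates 1 and 3 (0.35 and 0.41), and ASNS in EV replicate 3 (0.26). CEBPB and PPP1R15A have their lowest value in EV replicate 4.

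Among the UPR sensors and transcription factors no member was called by edgeR or DESeq2 with all libraries. Without EV replicate 2, ERN1 and CREB3L2 fell in OE in the first set, and ERN1 fell between the sets in EV. XBP1, whose spliced form is a main UPR transcription factor, measured 103, 144 and 109.9 CPM in EV replicates 1 to 3, 108, 117 and 107 in OE replicates 1 to 3, 106 and 96.4 in EV replicates 4 and 5, and 115 and 86.8 in OE replicates 4 and 5. EV replicate 2 was the highest library and OE replicate 5 the lowest, and the groups overlapped in both sets. The change of XBP1 in OE was -0.12 (SE 0.13) in the first set, then 0.00 (SE 0.14) in the second set.

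ATF6, a membrane-tethered factor released by cleavage, measured 109, 97.3 and 104 CPM in EV replicates 1 to 3, 89.2, 106 and 91.7 in OE replicates 1 to 3, 91.6 and 86.7 in EV replicates 4 and 5, and 93.5 and 86.1 in OE replicates 4 and 5. Its libraries lay within a narrow band, with OE changes of -0.12 (SE 0.10) in the first and 0.01 (SE 0.09) in the second. ERN1, the kinase and ribonuclease that splices XBP1, measured 16.7, 9.81 and 17.8 CPM in EV replicates 1 to 3, 11.3, 11.4 and 15.4 in OE replicates 1 to 3, 12.9 and 10.5 in EV replicates 4 and 5, and 10.9 and 9.66 in OE replicates 4 and 5. EV replicates 1 and 3 and OE replicate 3 were its high libraries. CREB3L2, a related membrane-bound factor, measured 100.4, 68.5 and 105 CPM in EV replicates 1 to 3, 85.9, 80.0 and 96.3 in OE replicates 1 to 3, 98.0 and 81.5 in EV replicates 4 and 5, and 93.7 and 75.3 in OE replicates 4 and 5, with EV replicate 2 lowest. All 4 sensors had estimates below 0 between the sets, in EV (median -0.23) and in OE (median -0.11).

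The ISR transcription factors held 3 of the 4 calls between the sets. CEBPB (chr20:50190734-50192689 in hg38, plus strand), a C/EBP factor that pairs with ATF4 and with CHOP, measured 247, 305 and 239.5 CPM in EV replicates 1 to 3, 322, 282 and 312 in OE replicates 1 to 3, 124 and 164 in EV replicates 4 and 5, and 139.8 and 184 in OE replicates 4 and 5. Every library of the second set lay below every library of the first. CEBPB fell from the first to the second set by 0.88 on the log2 scale in EV (SE 0.15, edgeR adjusted p = 0.00825). In OE it fell by 0.91 (SE 0.15, adjusted p = 0.00927). Each call was lost without replicate 4 of that group, a fit that keeps 1 library of the group in the second set. With single libraries left out, the change lay between -1.09 and -0.69 in EV and between -1.13 and -0.73 in OE. Within each set the OE mean was higher, by 0.20 (SE 0.11) and 0.17 (SE 0.17), but the libraries overlapped.

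DDIT3 (chr12:57516588-57521737 in hg38, minus strand), the pro-apoptotic factor CHOP, measured 12.6, 21.2 and 15.5 CPM in EV replicates 1 to 3, 10.9, 8.05 and 8.79 in OE replicates 1 to 3, 9.45 and 9.0 in EV replicates 4 and 5, and 12.1 and 9.83 in OE replicates 4 and 5. The 3 EV libraries of the first set were the highest of the 10, and the other 7 lay between 8.05 and 12.1 CPM. In EV, DDIT3 fell from the first to the second set by 0.84 (SE 0.22, edgeR adjusted p = 0.0440), while in OE the estimate was 0.24 (SE 0.22). The EV call was lost without EV replicate 3, 4 or 5. The fits without replicate 4 or 5 keep 1 EV library in the second set. With single EV libraries left out, the change lay between -0.99 and -0.60. In OE against EV DDIT3 differed by -0.83 (SE 0.20, adjusted p = 0.366) in the first set, then 0.25 (SE 0.18) in the second set. DDIT3 overlaps MARS and MBD6 on the other strand, whose counts were 2060% and 454% of its own, and no source used here says whether the counting used strand, so its values are uncertain.

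ATF4, the factor that translates the ISR into transcription, measured 551, 645 and 495 CPM in EV replicates 1 to 3, 598, 567 and 513 in OE replicates 1 to 3, 485 and 482 in EV replicates 4 and 5, and 524 and 505 in OE replicates 4 and 5. EV replicate 2 was highest. In the second set both OE libraries lay above both EV libraries, by 0.09 on the log2 scale (SE 0.07), and in the first set the groups overlapped (-0.02, SE 0.11). ATF4 is regulated mainly at translation, which these counts do not show.

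The ER chaperones were mostly lower in the second set. Of the 9, estimates of the second against the first set were below 0 for 8 in EV (median -0.25) and 7 in OE (median -0.20), beside medians of -0.02 and 0.00 over all genes tested. With all libraries edgeR called none of the 9, and 6 in EV and 3 in OE had an unadjusted p under 0.05, against 22.8% and 17.5% of all genes. DESeq2 called CANX and HSP90B1 in EV and PDIA4 and PDIA6 in OE, each lower. Without EV replicate 2, edgeR called CANX, DNAJC3 and HSP90B1 lower and SDF2L1 higher in EV. HSP90B1, the ER form of Hsp90, had the lowest estimate in both with all libraries (-0.43, SE 0.13, in EV and -0.31, SE 0.13, in OE, edgeR adjusted p = 0.0657 and 0.224). Without EV replicate 2 it was -0.28 in EV, above CANX at -0.39, and without OE replicate 5 it was -0.23 in OE, above PDIA4 at -0.25. SDF2L1, a small partner of BiP with ERSE-II in its window, was the 1 chaperone with estimates above 0 in both (0.05, SE 0.18, and 0.10, SE 0.17). HSPA5 was below 0 in EV (-0.24, SE 0.13) and above 0 in OE (0.08, SE 0.13).

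HSPA5 (chr9:125234853-125241330 in hg38, minus strand) measured 1733, 2017 and 1716 CPM in EV replicates 1 to 3, 1449, 1440 and 1494 in OE replicates 1 to 3, 1725 and 1384 in EV replicates 4 and 5, and 1769 and 1330 in OE replicates 4 and 5. The 3 OE libraries of the first set lay below the 3 EV libraries, and in the second set the groups overlapped. The change in OE was -0.33 (SE 0.09, edgeR adjusted p = 0.381) in the first set, then 0.00 (SE 0.15) in the second set, with an interaction of 0.32 (SE 0.18). In both groups of the second set replicate 5 was lower than replicate 4, by 0.32 in EV and 0.41 in OE on the log2 scale, the lowest such values among the chaperones.

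CALR measured 1212, 1303 and 1187 CPM in EV replicates 1 to 3, 1332, 1274 and 1326 in OE replicates 1 to 3, 1253 and 1065 in EV replicates 4 and 5, and 1372 and 1083 in OE replicates 4 and 5. Its libraries overlapped between the groups in both sets, with changes of 0.08 (SE 0.08) and 0.09 (SE 0.13). DNAJB9, an ERdj co-chaperone of BiP, measured 25.1, 26.2 and 26.0 CPM in EV replicates 1 to 3, 21.4, 19.4 and 24.7 in OE replicates 1 to 3, 21.4 and 18.3 in EV replicates 4 and 5, and 19.7 and 19.8 in OE replicates 4 and 5, with first-set OE below EV by 0.25 (SE 0.12). DNAJB9 overlaps THAP5 and PNPLA8 on the other strand, with 166% and 47.7% of its counts, and is uncertain for the same reason as DDIT3.

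SDF2L1 measured 44.2, 67.1 and 39.2 CPM in EV replicates 1 to 3, 52.2, 48.8 and 55.1 in OE replicates 1 to 3, 54.0 and 50.1 in EV replicates 4 and 5, and 57.2 and 54.1 in OE replicates 4 and 5, with EV replicate 2 highest and EV replicate 3 lowest. The other chaperones, the lectin CANX, the disulfide isomerases PDIA4 and PDIA6, HSP90B1 and the Hsp40 protein DNAJC3, had OE changes between -0.15 (HSP90B1) and 0.08 (PDIA6) in the first set and between -0.03 (HSP90B1) and 0.02 (DNAJC3) in the second.

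Of the ERAD genes, HERPUD1, a membrane protein of the degradation complex and the member with both motifs, had the lowest p of the 3 in OE against EV in the first set. HERPUD1 (chr16:56932048-56944863 in hg38, plus strand) measured 108, 116 and 112 CPM in EV replicates 1 to 3, 87.4, 90.9 and 86.7 in OE replicates 1 to 3, 112 and 103 in EV replicates 4 and 5, and 110.2 and 96.7 in OE replicates 4 and 5. The first-set OE libraries were the lowest 3 of all 10 and did not overlap their EV libraries. The difference was -0.35 (SE 0.08, edgeR adjusted p = 0.352) in the first set, then -0.05 (SE 0.10) in the second set.

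EDEM1, which extracts misfolded glycoproteins from the folding cycle, measured 125, 96.2 and 124 CPM in EV replicates 1 to 3, 115, 119 and 128 in OE replicates 1 to 3, 93.6 and 105 in EV replicates 4 and 5, and 85.4 and 100.2 in OE replicates 4 and 5, with OE replicate 4 and EV replicate 4 lowest. SEL1L, the scaffold of the HRD1 ubiquitin ligase, measured 113, 84.2 and 114 CPM in EV replicates 1 to 3, 89.5, 104 and 104 in OE replicates 1 to 3, 95.6 and 93.2 in EV replicates 4 and 5, and 88.4 and 95.4 in OE replicates 4 and 5, with EV replicate 2 lowest. For both, EV and OE overlapped in each set.

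The ATF4-driven amino acid genes mostly stood opposite the chaperones between the sets. Estimates of the second against the first set were above 0 for 7 of 9 in EV (median 0.11) and for 8 of 9 in OE (median 0.29). With all libraries edgeR called none of the 9, and 1 in EV and 4 in OE had an unadjusted p under 0.05, against the same 22.8% and 17.5%. SLC7A5 had the lowest p in both groups, with 0.39 (SE 0.14, edgeR adjusted p = 0.133) in EV and 0.48 (SE 0.14, adjusted p = 0.0984) in OE, and DESeq2 called it in OE (adjusted p = 0.0369). SLC7A5 measured 1784, 1323 and 1674 CPM in EV replicates 1 to 3, 1549, 1522 and 1650 in OE replicates 1 to 3, 1845 and 2360 in EV replicates 4 and 5, and 1960 and 2445 in OE replicates 4 and 5, and every library of the second set lay above every library of the first. SLC7A11 was below 0 in EV (-0.19, SE 0.14) and above 0 in OE (0.45, SE 0.14). PSPH, the last enzyme of serine synthesis, went below 0 in both groups (-0.14, SE 0.11, and -0.16, SE 0.11). Counts of its copy PSPHP1 were 4.69% of those of PSPH, so PSPH is uncertain.

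SLC7A11 (chr4:138164097-138242349 in hg38, minus strand), the cystine importer of system xc-, measured 48.2, 37.0 and 50.1 CPM in EV replicates 1 to 3, 29.1, 27.8 and 31.4 in OE replicates 1 to 3, 42.0 and 37.9 in EV replicates 4 and 5, and 41.4 and 38.8 in OE replicates 4 and 5. The first-set OE libraries were the lowest 3 of the 10, and in the second set EV and OE overlapped. Its OE change was -0.63 in the first set (SE 0.13, edgeR adjusted p = 0.307), the lowest p of the 34, and 0.01 in the second (SE 0.11). SLC3A2, the heavy chain that SLC7A5 and SLC7A11 share, measured 589, 687 and 539 CPM in EV replicates 1 to 3, 575, 519 and 546 in OE replicates 1 to 3, 597 and 717 in EV replicates 4 and 5, and 629.5 and 744 in OE replicates 4 and 5, with changes of -0.16 (SE 0.10) and 0.07 (SE 0.12).

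PSAT1 measured 323, 347 and 315 CPM in EV replicates 1 to 3, 289.9, 321 and 285 in OE replicates 1 to 3, 391 and 349.9 in EV replicates 4 and 5, and 396 and 332 in OE replicates 4 and 5, with replicate 4 of both groups highest. ASNS measured 0.900, 0.968 and 1.64 CPM in EV replicates 1 to 3, 1.2, 1.39 and 0.628 in OE replicates 1 to 3, 1.72 and 1.09 in EV replicates 4 and 5, and 1.90 and 1.98 in OE replicates 4 and 5, levels at which 1 library holds few counts, and its interval in the second set ran from -0.53 to 1.45 on the log2 scale. In the first set the OE changes of the other amino acid genes, SLC7A5, the serine enzymes PHGDH and PSPH and the mitochondrial folate enzymes SHMT2 and MTHFD2, lay between -0.10 (MTHFD2) and 0.05 (SHMT2). In the second set they lay between -0.04 (PSPH) and 0.07 (SLC7A5).

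Read as sums, the chaperones reached 4319 to 5297 TPM per library and the amino acid genes 2300 to 3492 TPM. The ratio of these sums was 1.87, 2.23 and 1.95 in EV replicates 1 to 3, 1.99, 1.97 and 1.99 in OE replicates 1 to 3, 1.67 and 1.29 in EV replicates 4 and 5, and 1.67 and 1.26 in OE replicates 4 and 5. All 4 libraries of the second set lay below all 6 of the first, and within the second set replicate 5 was lower than replicate 4 in both groups. EV and OE overlapped in each set. In replicate 4 the chaperone sums, 5094 TPM in EV and 5245 in OE, lay within the first-set range of 4885 to 5297. In replicate 5 they were lower, at 4319 in EV and 4398 in OE. The amino acid sums were 2300 to 2835 TPM in the first set and 3046 to 3492 in the second. Both sums are led by CALR, HSPA5 and SLC7A5, so the comparison was also read with equal weight per gene. The median log2 change of the chaperones minus that of the amino acid genes was -0.36 in EV and -0.48 in OE for the second against the first set. For OE against EV it was 0.01 with both sets, 0.05 in the first and -0.04 in the second, and each of these changed sign with single libraries. With both sets it was -0.01 without EV replicate 2, -0.02 without EV replicate 5 and -0.03 without OE replicate 4. It was -0.03 in the first set without OE replicate 3, and 0.02 in the second without EV replicate 4. These are descriptions of the list, with no test.

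**Figure D4:**
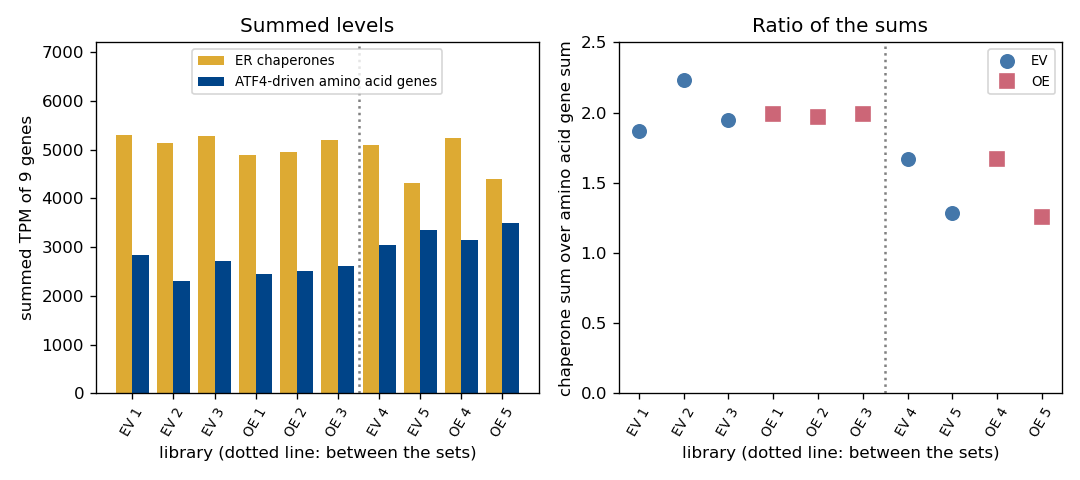
Left, summed TPM of the 9 ER chaperones (yellow) and the 9 amino acid genes (blue) in each library; right, their ratio, with EV as circles and OE as squares. The ratio is 1.87 or higher in the first set and 1.67 or lower in the second.

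The effectors and feedback genes held 1 call. PPP1R15A (chr19:48872392-48876057 in hg38, plus strand), which directs a phosphatase to eIF2, measured 150.3, 155 and 122 CPM in EV replicates 1 to 3, 108, 97.3 and 107 in OE replicates 1 to 3, 61.2 and 88.4 in EV replicates 4 and 5, and 88.0 and 96.5 in OE replicates 4 and 5. In EV it fell from the first to the second set by 0.94 on the log2 scale (SE 0.15, edgeR adjusted p = 0.00583). The call was lost without EV replicate 4, its lowest library, a fit that keeps 1 EV library in the second set. With single EV libraries left out, the change lay between -1.22 and -0.69. The OE estimate between the sets was -0.17 (SE 0.15). OE lay below EV without overlap in the first set (-0.46, SE 0.11, adjusted p = 0.352), and the groups overlapped in the second (0.31, SE 0.17).

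DDIT4, the mTORC1 inhibitor REDD1, went the other way in the first set. DDIT4 (chr10:72273920-72276036 in hg38, plus strand) measured 67.5, 67.6 and 57.4 CPM in EV replicates 1 to 3, 90.2, 76.5 and 86.8 in OE replicates 1 to 3, 72.4 and 53.9 in EV replicates 4 and 5, and 68.3 and 58.3 in OE replicates 4 and 5. All first-set OE libraries lay above all other libraries, with a difference from EV of 0.39 (SE 0.11, edgeR adjusted p = 0.396), while in the second set it was 0.00 (SE 0.15).

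CHAC1, which degrades glutathione, measured 24.1, 23.4 and 19.2 CPM in EV replicates 1 to 3, 25.1, 26.9 and 18.0 in OE replicates 1 to 3, 21.0 and 15.4 in EV replicates 4 and 5, and 27.4 and 16.8 in OE replicates 4 and 5. Replicate 5 was lower than replicate 4 by 0.44 in EV and 0.69 in OE on the log2 scale. TRIB3, a pseudokinase that dampens ATF4, VLDLR, a lipoprotein receptor, and STC2, a secreted glycoprotein, had OE changes between -0.14 (STC2) and 0.09 (TRIB3) in the first set and between -0.03 (VLDLR) and 0.23 (STC2) in the second. Between the sets the estimates of TRIB3 and VLDLR were -0.26 and -0.28 in EV, and -0.28 and -0.27 in OE. They moved with single libraries: TRIB3 in OE was -0.13 without replicate 4 and -0.46 without replicate 5, and VLDLR in EV was -0.13 without replicate 4 and -0.41 without replicate 5.

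**Figure D5:**
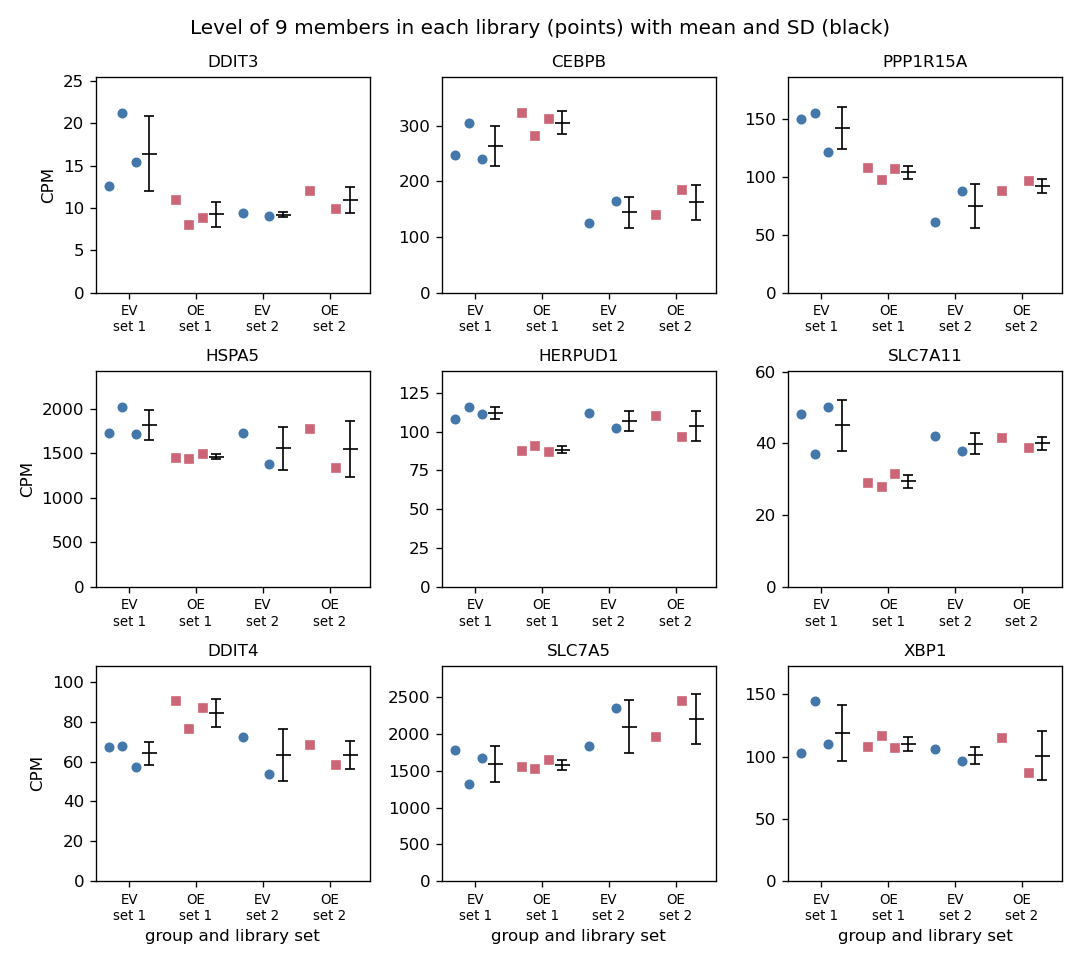
CPM of 9 members in each library, EV as circles and OE as squares, with the mean and SD of each group and set in black (n = 3 in the first set, 2 in the second). HERPUD1, SLC7A11 and PPP1R15A show first-set OE libraries below first-set EV libraries, and CEBPB shows all second-set libraries below all first-set libraries.

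Other genes of the pathways, 93 in 6 lists, were read beside the members. In OE against EV edgeR called 0 of 91 tested with both sets, 1 of 92 in the first set and 0 of 91 in the second, against 0.0%, 0.0349% and 0.0% of all genes. At an unadjusted p under 0.05 there were 4, 4 and 1, against 5.71%, 8.84% and 1.1% of all genes. The 1 call was ATF3, an immediate stress factor that ATF4 induces: 29.5, 33.4 and 30.8 CPM in EV replicates 1 to 3, 10.1, 10.7 and 12.8 in OE replicates 1 to 3, 8.65 and 9.90 in EV replicates 4 and 5, and 15.3 and 11.7 in OE replicates 4 and 5. ATF3 fell in OE in the first set, with a log2 change of -1.49 (SE 0.13, edgeR adjusted p = 0.0102), and the difference of its change between the sets was 2.04 (SE 0.23, adjusted p = 0.0113). VEGFA (0.36, SE 0.08) and FKBP2 (0.40, SE 0.14) had the next lowest p in the first set. NUPR1 (0.22, SE 0.13) and SEC61G (0.23, SE 0.16) did so after ATF3 (0.55, SE 0.20) in the second, and UBE2J1 (-0.15, SE 0.06) and FKBP2 (0.27, SE 0.11) after ATF3 (-0.72, SE 0.29) with both sets. For the interaction, SSR3 (0.32, SE 0.13) and SEC61G (0.57, SE 0.28) followed ATF3.

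Between the sets, 10 of 92 list genes were called in EV, 5 higher and 5 lower in the second set, against 5.52% of all genes tested. In OE there were 6, 4 higher and 2 lower, against 2.61%. By list, other ISR transcription factors and effectors gave 4 calls of 9 in EV and 2 in OE, other amino acid transport and synthesis genes 3 of 17 and 2, other ER chaperones and folding enzymes 2 of 19 in each, ERAD and export genes 1 of 24 and 0. The ISR kinases with eIF2 and eIF2B (11 genes) and the aminoacyl-tRNA synthetases (12 genes) gave 0 calls in each, with 0 and 2 genes in EV and 0 and 1 in OE at an unadjusted p under 0.05. The 5 calls of amino acid genes, SLC1A5 and MTHFD1L in both groups and PYCR1 in EV, were higher in the second set. At an unadjusted p under 0.05, that list had 5 genes higher and 2 lower in EV, against 22.8% of all genes. In OE it had 4 higher and 1 lower, against 17.5%. ATF3 fell in EV, with a change of -1.76 (SE 0.17, edgeR adjusted p = 0.000237), and its estimate in OE was 0.27 (SE 0.16). ATF5, an ATF4 relative, rose by 0.86 in EV (SE 0.10, adjusted p = 0.000793) and 0.68 in OE (SE 0.10, adjusted p = 0.00353). TXNDC5, a disulfide isomerase, rose by 1.26 in EV (SE 0.17, adjusted p = 0.00198) and 0.94 in OE (SE 0.16, adjusted p = 0.0103). MANF, an ER-resident factor induced by ER stress and the other call of the same list, is named after its values were seen: it fell in EV, with a change of -0.96 (SE 0.16, adjusted p = 0.00770), and in OE, with -0.75 (SE 0.16, adjusted p = 0.0321). VEGFA, an angiogenic factor, fell in EV, with a change of -0.63 (SE 0.15, adjusted p = 0.0319), and in OE, with -0.95 (SE 0.15, adjusted p = 0.00782).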

How the data were processed

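RNA-seq was measured in 10 libraries, 5 EV and 5 OE. Per the file headers, the tables deposited by the authors hold a raw count per gene and library. The submitters' processing notes name hg38 as the build and, among tools, HISAT2 2.0.5 beside fastp, with CASAVA 1.8, DESeq2 1.20.0 and featureCounts 1.5.0-p3 also listed. No source used here gives their roles, the annotation release or the use of strand. The 14 deposited per-library columns of normalized values and the authors' own comparisons were not used.

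The members and all gene lists were chosen with earlier results of these data known. Counts were joined by gene identifier and tested over all genes that passed filterByExpr, in R 4.3.3 with edgeR 4.0.16 (quasi-likelihood test), TMM scaling and Benjamini-Hochberg adjusted p under 0.05. Fits were OE against EV with the set as a term, each set alone with its own dispersion, and a fit with 4 cells (group by set) for the interaction and for the second against the first set. Fold changes are log2, and their standard error (SE) was derived from the test statistic. TPM used the deposited gene lengths. Depth was 15761474 to 18066559 counts, so 3 counts, the limit that a count of 0 allows, equal 0.166 to 0.190 CPM, for counting error only. No library repeated another: sampling noise alone would give a chi-square near its degrees of freedom, and each pair of a group had a ratio of 4.30 or more. The scripts were tested on simulated data. Values in every library are given for ATF4, DDIT3, HSPA5 and XBP1, for called members, and for the 2 members of each role with the lowest p in each within-set fit; other pathway genes are the 3 with the lowest p in a comparison. Alternatives were RLE scaling, no filter on low counts, DESeq2 1.42.0, leaving out each library, and a replicate block.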

Additional observations from a re-analysis of the deposited data

Results flagged for a closer look

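XBP1 in EV replicate 2 measured 144.4 CPM, while the other 4 EV libraries lay between 96.4 and 109.9 CPM, and its gap to the next library took more of the range than the limit of Dixon's test for 5 values. STC2 in OE replicate 4 measured 52.8 CPM, while the other 4 OE libraries lay between 33.0 and 35.7 CPM, and passed the same limit. In all 68 groups of 5 libraries were tested, 34 members in EV and in OE. Chance passes this limit in about 1 of 20 groups whose values come from 1 population. Each group here joins libraries of both sets, so 2 of 68 cannot be judged against that rate. The OE change of ATF3, a pathway gene beside the members, differed between the sets by 2.04 on the log2 scale (SE 0.23, edgeR adjusted p = 0.0113).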

How the results depend on the processing

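Scaling by RLE moved no count of called members and no median. For OE against EV in the first set, 0 members were called by edgeR, 3 without the filter on low counts, 3 by DESeq2, and 0 to 11 when single libraries were left out. For the interaction, 1 member was called without the filter (PPP1R15A). For the second against the first set, EV gave 5 without the filter, 5 by DESeq2 and 0 to 9 when single libraries were left out, against 3, and OE gave 2 without the filter, 4 by DESeq2 and 0 to 1 without single libraries, against 1. The chaperone minus amino acid median moved by more than its spread under left-out libraries: -0.027 to 0.113 in the first set, -0.121 to 0.0184 in the second, -0.172 to 0.0581 for the interaction, -0.374 to -0.280 for EV between the sets and -0.498 to -0.409 for OE. With both sets it ranged from -0.0327 to 0.0510, within its spread. No called value changed its direction. Of the values of single members under the alternatives, 311 kept their side of the threshold, 25 gained a call and 6 lost one. The causes were not tested. Over all genes, edgeR calls for OE against EV were 0 with both sets, 5 in the first set, 0 in the second and 1 for the interaction. They were 23, 90, 12 and 28 without the filter, 6, 76, 1 and 9 by DESeq2, and 0, 1, 71 and 3 with the replicate block. Without single libraries they were 0 with both sets, 0 to 1578 in the first set (1578 without EV replicate 2, at most 1 otherwise), 0 to 1 in the second and 0 to 8 for the interaction. Between the sets they were 850 in EV (1421 without the filter, 1408 by DESeq2, 46 to 2312 without single libraries) and 402 in OE (923, 856, and 29 to 207).

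The replicate block was fitted for OE against EV and the interaction only, since a replicate number lies within 1 set. Deviations of libraries with the same number correlated at -0.11, 0.00 and 0.16 in the first set. In the second set 2 libraries a group give a single value, 0.31. Not every number passed 0.1, so the numbers were not taken as pairs. In the first set EV replicate 3 correlated best with the OE library of its own number, and replicates 1 and 2 with another. With the block, 0 members were called with both sets, 0 in the first, 1 in the second (PPP1R15A, 0.32 on the log2 scale, edgeR adjusted p = 0.00134) and 0 for the interaction.

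Depth limits ASNS, with 11 to 34 counts per library, and each group of the second set has 2 libraries.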
